A study of Rattus norvegicus with 12 samples.

Results

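The genes described here encode subunits of the sodium potassium pump: the catalytic alpha subunit gene Atp1a4 and the beta subunit genes Atp1b1, Atp1b2 and Atp1b3. These 4 of the 33294 genes in the count table were taken by name, and they were selected from values measured in the same libraries, so their levels, fold changes and shares are given as a description with no test. All 4 had counts in all 12 libraries and passed the filter on low counts in each comparison.

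Messenger RNA was sequenced from PAC1 cells, a rat pulmonary artery smooth muscle line that can be kept in a more differentiated (PAC1-D) or a more proliferative (PAC1-P) state by how it is passaged. D1 is PAC1-D with a control siRNA, P is PAC1-P with a control siRNA, RBPMS KD1 is PAC1-D with siRNA against the RNA-binding protein RBPMS, and MBNL KD is PAC1-D with siRNAs against MBNL1 and MBNL2 together. Each group had 3 libraries, every culture received 90 pmol of siRNA by reverse transfection, and all came from 1 cell line. P is compared with D1 for the change of phenotype, and each knockdown with D1 for what depletion of the protein alters within PAC1-D.

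The sodium potassium pump exports sodium and imports potassium at the cost of ATP. Its alpha subunit binds the ions and splits ATP, its beta subunit is needed for folding, assembly and transport of the alpha subunit to the membrane, and small FXYD proteins tune its activity. In smooth muscle the sodium gradient that the pump maintains drives sodium-calcium exchange, and so bears on cytoplasmic calcium and contraction.

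The libraries held 80842635 to 90771289 counts, and 3 counts, taken as the detection limit, equalled 0.0331 to 0.0371 CPM, the usual unit of counts relative to the size of a library. Scaled counts are counts adjusted by library size and TMM factors to a common depth. Rbpms had 13346 scaled counts in D1, 841 in P, 3337 in RBPMS KD1 and 11111 in MBNL KD. In MBNL KD, Mbnl1 lay at 7307 against 30833 in D1, and Mbnl2 at 4732 against 16016. The summed level of 6 smooth muscle markers was 8730 to 9180 CPM in D1, 172 to 182 in P, 4340 to 4510 in RBPMS KD1 and 7020 to 7130 in MBNL KD. Summed endothelial markers lay at 0.747 to 0.817 CPM in D1, 5.42 to 6.75 in P, 1.83 to 1.84 in RBPMS KD1 and 0.934 to 1.41 in MBNL KD. Epithelial markers lay at 80.2 to 83.2 CPM in P and 35.6 to 54.4 elsewhere. Nearly all of that sum was Krt8, which averaged 36.3 CPM in D1 and 81.6 in P. Leukocyte markers lay at 0.874 to 1.1 CPM in D1, 0.87 to 1.41 in P, 0.924 to 1.34 in RBPMS KD1 and 1.35 to 1.49 in MBNL KD. In RBPMS KD1 edgeR called higher 2 of 2 tested endothelial markers (Tek and Vwf), beside 3.06% of all genes. Cdh5 and Kdr had no count there. It called lower 3 of 6 smooth muscle markers there, beside 1.62% of all genes. In MBNL KD it called higher 1 of 2 tested leukocyte markers (Csf1r), beside 6.1% of all genes. Ptprc and Adgre1 had no count there and Cd68 was not called. Of 3 tested neuronal and glial markers in MBNL KD, 1 was called higher and 1 lower, beside 6.1% and 4.14% of all genes. The part of these marker differences in the pump gene values was not tested. In bulk RNA, fewer cells of a type and less RNA per cell cannot be told apart. The study describes its replicates as independent biological ones, the labels do not, and p-values measure only the spread between these libraries.

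The pump genes did not move as a unit. Atp1b2 was lower than in D1 in all 3 other groups, Atp1a4 was lower in P and higher in both knockdowns, Atp1b1 was higher in P and RBPMS KD1 and lower in MBNL KD, and Atp1b3 was higher in RBPMS KD1 and lower in P and MBNL KD. The widest differences were those of the low-count genes Atp1a4 and Atp1b2 in P, and in the knockdowns those of Atp1b2 and, in MBNL KD, of Atp1b3, the beta gene with the most counts.

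**Figure D1:**
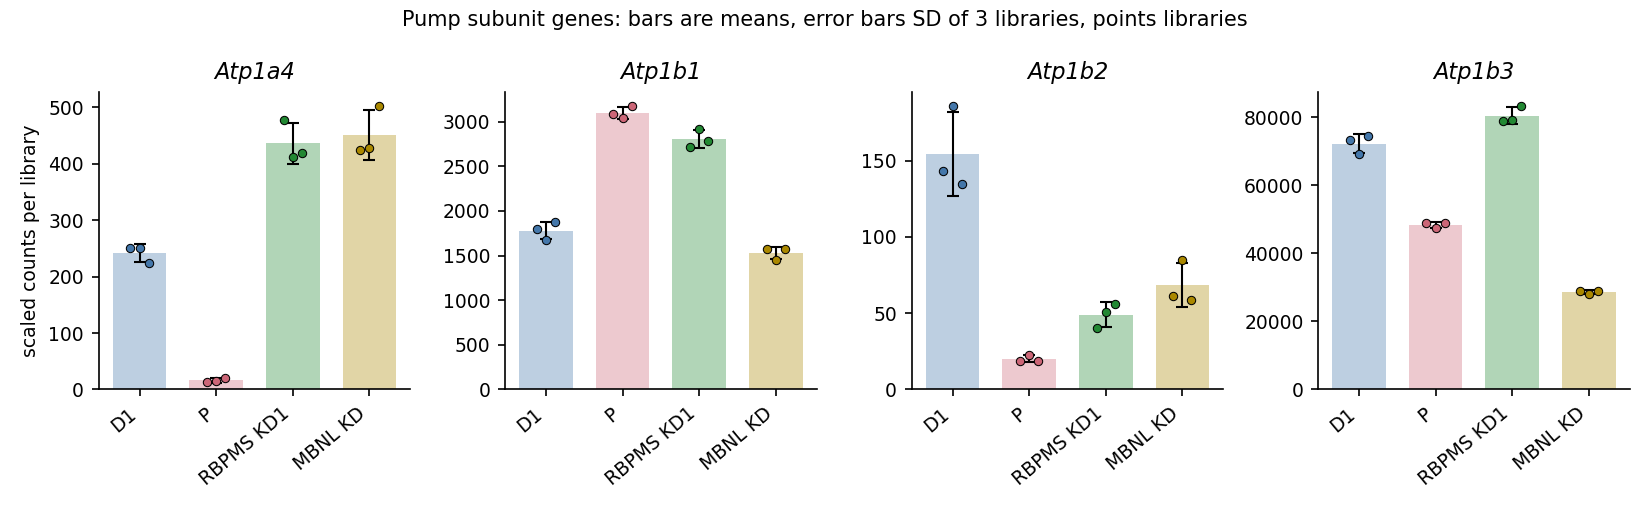
Scaled counts (linear vertical axes from 0, 1 panel per gene) of the 4 pump subunit genes in D1, P, RBPMS KD1 and MBNL KD. Bars are group means, error bars the SD of 3 libraries and points the libraries. Atp1a4 averaged 16.1 in P and 451 in MBNL KD, while Atp1b3 averaged 28693 in MBNL KD and 80490 in RBPMS KD1.

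Atp1a4 encodes the alpha isoform best known from sperm, where it is needed for motility. Its scaled counts were 250, 251 and 224 in D1, and 13.2, 14.2 and 20.9 in P. The P libraries lay far below every D1 library, on 14, 15 and 22 counts, which is above the detection limit of 3. The fitted log2 fold change was −3.90 ± 0.21 (SE), 14.9-fold lower in P. It was 24.7-fold lower under quantile normalization (−4.63) and 6.34-fold lower on the authors' normalised values (−2.66).

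In RBPMS KD1, Atp1a4 had 478, 412 and 419 scaled counts, all above the D1 libraries, and the log2 fold change was 0.86 ± 0.099. In MBNL KD it had 423, 428 and 502 scaled counts, also all above D1, with a log2 fold change of 0.91 ± 0.10. These are 1.81-fold and 1.87-fold higher levels, below the 2-fold size that a call required here. The 2 knockdowns overlapped with each other, and the difference RBPMS KD1 minus MBNL KD was −0.05 ± 0.092 (SE) on the log2 scale. From lowest to highest the group means ran P, D1, RBPMS KD1 and MBNL KD, of which only the last pair overlapped.

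Markers of spermatogenic cells were read beside Atp1a4. Their summed level over 8 genes was 787 to 803 CPM in P, where Atp1a4 was lowest, and 17.4 to 24.6 CPM across the other groups. In P it came from Tex101, Ddx4 and Sycp3, with 62346, 5079 and 3324 scaled counts, the only 3 of the 8 genes with a mean above 3 there. Tnp1, a marker of late spermatids, was at 0 in all 12 libraries, and Acr and Prm1 had no count in P. The part of these genes in the Atp1a4 level was not tested.

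Atp1b1 encodes the most widely expressed beta subunit, the one usually paired with the pump of kidney and most other tissues. Its scaled counts were 1795, 1675 and 1874 in D1, and 3086, 3041 and 3175 in P. No P library overlapped with D1, and the log2 fold change was 0.80 ± 0.043 (SE), 1.74-fold higher in P. RBPMS KD1 lay nearer to P than to D1, at 2716, 2923 and 2784 scaled counts, a log2 fold change of 0.66 ± 0.046.

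MBNL KD had the lowest Atp1b1 levels, with 1570, 1452 and 1572 scaled counts against at least 1675 in D1, and a log2 fold change of −0.21 ± 0.052, or −0.14 under upper-quartile scaling. The order was thus MBNL KD, D1, RBPMS KD1 and P, and neighbouring groups did not overlap. The 2 knockdowns lay on opposite sides of D1 for this gene, with RBPMS KD1 1.83-fold above MBNL KD (log2 difference 0.87 ± 0.047). In the RefSeq gene table for GRCr8, another assembly than the one used for the counts, the span of Atp1b1 overlaps that of Nme7 by 183 bases. Nme7 averaged 1208 scaled counts in D1 and 1182 in P, a log2 fold change of −0.03 ± 0.056 (edgeR adjusted p = 0.61). It was 0.19 ± 0.056 (edgeR adjusted p = 0.0048) in RBPMS KD1 and −0.22 ± 0.058 (edgeR adjusted p = 0.0013) in MBNL KD, the same signs as Atp1b1 there. Whether reads of the overlap enter the Atp1b1 counts was not tested.

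Atp1b2 encodes the beta subunit also known as AMOG, an adhesion molecule on glia. Its scaled counts were 143, 186 and 135 in D1, and 18.8, 22.7 and 19.0 in P. The P libraries lay well below D1, on 20 to 24 counts each, and the log2 fold change was −2.93 ± 0.24 (SE), 7.62-fold lower. It was 11.1-fold lower under quantile normalization (−3.48) and 4.08-fold lower on the authors' normalised values (−2.03).

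Both knockdowns also lay below D1 for Atp1b2, without overlap. RBPMS KD1 had 40.4, 50.7 and 56.1 scaled counts and a log2 fold change of −1.65 ± 0.20, 3.14-fold lower. MBNL KD had 61.6, 85.0 and 58.9 scaled counts and a log2 fold change of −1.16 ± 0.19, 2.24-fold lower. With the counts thinned to 25%, the MBNL KD value was −0.92 and no longer past 2-fold. The order was P, RBPMS KD1, MBNL KD and D1. RBPMS KD1 and MBNL KD did not overlap, but the highest RBPMS KD1 library (56.1) was close to the lowest MBNL KD library (58.9). Neuronal and glial markers, read beside this gene as AMOG is known from glia, summed to 17.3 to 19.1 CPM in D1, 6.29 to 6.53 in P, 14.7 to 15.9 in RBPMS KD1 and 18.1 to 20.0 in MBNL KD, with 3 of the 5 markers above a mean of 3 counts in D1. Most of this sum was Mbp, and the sums hide moves of single markers in MBNL KD. There the neuronal marker Syt1 fell from a mean of 299 to 41.3 scaled counts (edgeR adjusted p = 4.2e-15), and the glial marker Gfap had 4, 8 and 0 counts in D1 and 28, 18 and 12 in MBNL KD, through which alone it passed the filter on low counts. Their part in the Atp1b2 values was not tested.

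Atp1b3 encodes the third beta subunit, also called CD298, which is found at the surface of many cell types. It had 73431, 69106 and 74392 scaled counts in D1, and 48853, 47506 and 48823 in P. All P libraries were below D1, with a log2 fold change of −0.58 ± 0.026 (SE), 1.5-fold lower. The size of this difference depends on the scaling, and was −0.32 under quantile normalization and −0.33 on the authors' normalised values.

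MBNL KD had 29055, 28024 and 28999 scaled counts of Atp1b3, the lowest of the 4 groups, and its log2 fold change was −1.33 ± 0.028, 2.51-fold lower than D1. RBPMS KD1 had 79050, 79116 and 83305, slightly above every D1 library, with a log2 fold change of 0.16 ± 0.028, 1.11-fold higher. The order was MBNL KD, P, D1 and RBPMS KD1, with no overlap between neighbours. The 2 knockdowns were thus furthest apart of all groups for this gene, and RBPMS KD1 was 2.8-fold above MBNL KD (log2 difference 1.49 ± 0.028). A pseudogene, Atp1b3-ps2, is listed in the GRCr8 gene table and has no row in the count table, so whether its reads were counted under Atp1b3 is uncertain.

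Read against all genes, the share of members past the thresholds (adjusted p below 0.05 by edgeR with Benjamini-Hochberg adjustment and more than a 2-fold difference) carries no test, because these contrasts were in view when the members were chosen. In P, Atp1a4 and Atp1b2 were past the thresholds, both lower, where 27.6% of 16814 tested genes were called, 16.4% higher and 11.2% lower. By size they ranked 175 and 344 among the 1883 genes called lower. In RBPMS KD1, Atp1b2 alone was past the thresholds, ranking 36 of 258 genes called lower, where 4.68% of 15904 genes were called, 3.06% higher and 1.62% lower. In MBNL KD, Atp1b3 and Atp1b2 were past them, ranking 320 and 466 of 664 genes called lower, where 10.2% of 16053 genes were called, 6.1% higher and 4.14% lower. Between RBPMS KD1 and MBNL KD only Atp1b3 was past them, where 11.9% of 16111 genes were called.

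The split between higher and lower calls depended on the scaling. Of all called genes, 59.4% were higher in P with TMM scaling and 45.4% under quantile normalization, and these shares were 65.4% and 53.8% in RBPMS KD1 and 59.6% and 50% in MBNL KD. Each of the 4 members was separate from D1 in each of the 3 other groups, and so were 79.1% of all tested genes in P, 63.4% in RBPMS KD1 and 70.3% in MBNL KD. The median log2 fold change of the members was −1.75 in P, 0.41 in RBPMS KD1 and −0.69 in MBNL KD, beside 0.02, 0.00 and 0.01 over all genes tested.

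Promoter windows are shown for the 3 members that the RefSeq promoter table for GRCr8 holds by symbol, so that the genes with the widest differences in P, Atp1a4 and Atp1b2, can be set beside Atp1b3. Each window runs 5′ to 3′ in the direction of the gene, from 250 bases before to 50 bases after its start, and lies on the minus strand at chr13:87252005-87252304 for Atp1a4, chr10:54823659-54823958 for Atp1b2 and chr8:105821102-105821401 for Atp1b3. Capitals mark 3 motifs on either strand, and no 2 matches shared a base. The GC box was searched as GGGCGG. The TATA box, a motif known to lie shortly before the start, was searched as TATAAA. The CCAAT box was searched by the letters of its name.
Atp1a4: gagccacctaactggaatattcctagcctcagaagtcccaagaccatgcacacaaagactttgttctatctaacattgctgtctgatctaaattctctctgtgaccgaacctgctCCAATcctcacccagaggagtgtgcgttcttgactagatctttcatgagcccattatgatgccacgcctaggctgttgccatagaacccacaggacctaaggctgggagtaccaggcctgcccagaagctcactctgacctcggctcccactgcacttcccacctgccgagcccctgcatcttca
Atp1b2: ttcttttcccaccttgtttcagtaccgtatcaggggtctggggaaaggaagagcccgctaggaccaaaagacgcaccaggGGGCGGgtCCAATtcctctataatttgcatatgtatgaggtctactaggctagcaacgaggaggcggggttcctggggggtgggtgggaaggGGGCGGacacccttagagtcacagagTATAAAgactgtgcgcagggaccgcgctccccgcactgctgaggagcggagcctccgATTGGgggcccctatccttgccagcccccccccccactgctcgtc
Atp1b3: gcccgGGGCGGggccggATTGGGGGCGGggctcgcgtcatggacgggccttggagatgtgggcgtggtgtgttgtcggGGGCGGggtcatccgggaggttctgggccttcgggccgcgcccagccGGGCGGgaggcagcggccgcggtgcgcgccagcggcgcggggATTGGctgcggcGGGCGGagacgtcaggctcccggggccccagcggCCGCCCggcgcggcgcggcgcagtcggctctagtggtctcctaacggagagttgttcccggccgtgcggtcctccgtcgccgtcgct

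The window of Atp1b3 held 6 GC boxes and 2 CCAAT boxes, no TATA box and 46 CpG dinucleotides, with a GC content of 77.7%, above that of 98.2% of the 27457 windows. The window of Atp1b2 held 2 GC boxes, 2 CCAAT boxes and 1 TATA box, with 14 CpG and 60.3% GC. The window of Atp1a4 held 1 CCAAT box and neither of the other motifs, with 5 CpG and 52.3% GC, which is the median of all windows. Over all windows, 34.9% held a GC box, 37.7% a CCAAT box and 14.3% a TATA box. A CArG box, the motif of serum response factor, was found in 1.6% of windows and in none of these 3. These matches describe the letters of the windows only.

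The makeup of the beta subunit counts differed between groups, and for Atp1b1 and Atp1b3 no 2 groups overlapped. Atp1b3 took 97.4% ± 0.0315 (SD, n = 3) of the counts of the 3 beta genes in D1, 93.9% ± 0.0822 in P, 96.6% ± 0.171 in RBPMS KD1 and 94.7% ± 0.0705 in MBNL KD. Atp1b1 took 2.40% ± 0.0482 in D1, 6.02% ± 0.0822 in P, 3.37% ± 0.170 in RBPMS KD1 and 5.05% ± 0.123 in MBNL KD. Atp1b2 took 0.209% ± 0.046 in D1, 0.0392% ± 0.00494 in P, 0.0588% ± 0.00827 in RBPMS KD1 and 0.227% ± 0.0526 in MBNL KD, of which D1 and MBNL KD overlapped. On the authors' normalised values its share was 0.0925% in P and 0.113% in RBPMS KD1. These shares are of counts and are not corrected for transcript length, so they do not rank the genes by number of transcripts, and levels are compared here only between groups. The summed beta counts, scaled, were 69.4% of D1 in P, 112% in RBPMS KD1 and 40.8% in MBNL KD, which follows Atp1b3.

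The ratio of 2 genes within a library does not depend on a scaling by 1 factor per library (quantile normalization is not of that kind). Its difference between groups does not depend on gene length if each gene keeps the same transcript lengths in all groups, which was not tested. The log2 ratio of Atp1b1 to Atp1b3 was −5.34 ± 0.029 (SD, n = 3) in D1, −3.96 ± 0.021 in P, −4.84 ± 0.075 in RBPMS KD1 and −4.23 ± 0.036 in MBNL KD. All 3 groups lay above D1 without overlap, by 2.6-fold in P, 1.42-fold in RBPMS KD1 and 2.17-fold in MBNL KD. The members of the pair differed between the groups: in P Atp1b1 was higher and Atp1b3 lower, in RBPMS KD1 both were higher, and in MBNL KD both were lower.

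The log2 ratio of Atp1b1 to Atp1b2 exceeded that of D1 by 3.73 in P, 2.31 in RBPMS KD1 and 0.96 in MBNL KD, again without overlap. For Atp1b3 to Atp1b2 the difference was 2.35 in P and 1.81 in RBPMS KD1, both without overlap. On the authors' normalised values the P differences were 2.83 for Atp1b1 to Atp1b2 and 1.69 for Atp1b3 to Atp1b2. In MBNL KD the latter difference was −0.15 on the counts, and the libraries of MBNL KD (8.37 to 8.94) overlapped with those of D1 (8.54 to 9.11), since both genes were lower there to a like extent.

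**Figure D2:**
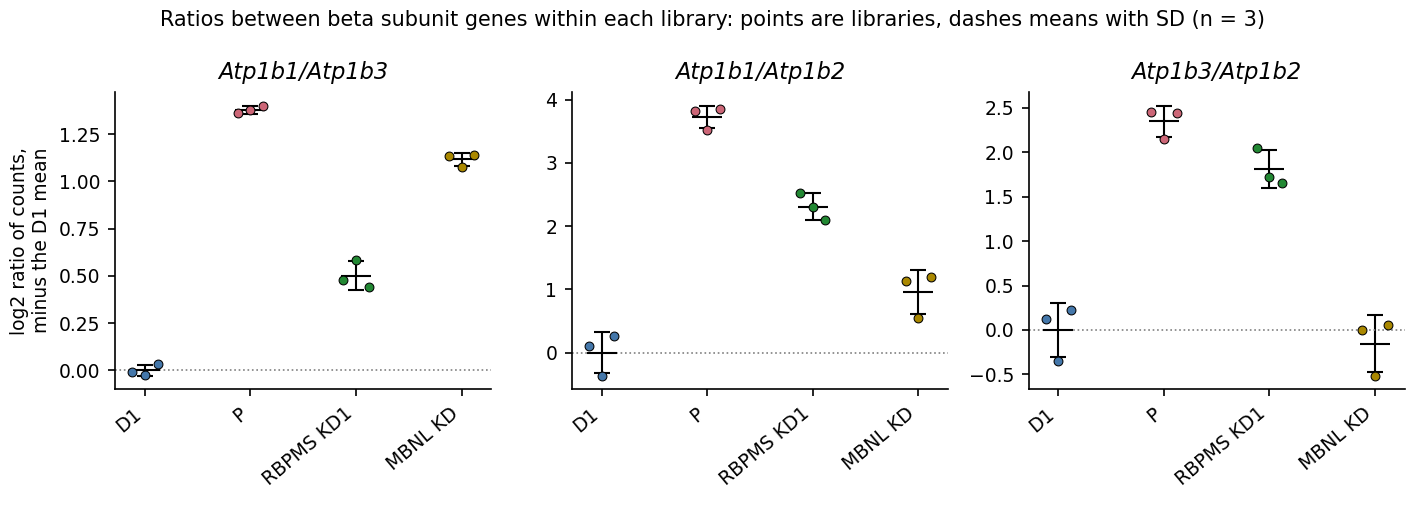
Log2 ratio of the counts of 2 beta subunit genes within each library, minus the D1 mean, in D1, P, RBPMS KD1 and MBNL KD (1 panel per ratio, points are libraries, dashes the mean with the SD of 3). The Atp1b1 to Atp1b3 ratio lies 1.38 above D1 in P and 1.12 above D1 in MBNL KD, and the Atp1b3 to Atp1b2 ratio overlaps with D1 in MBNL KD.

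The FXYD genes, which encode small membrane proteins that modify the pump's transport rate, numbered 7, of which 2 passed the filter on low counts in P. Of these 1 was called lower and 1 higher, beside 11.2% and 16.4% of all genes. Fxyd1, which encodes phospholemman, the pump regulator of heart and smooth muscle, had 902, 1028 and 889 scaled counts in D1, and 91.3, 77.6 and 95.8 in P. It fell in P, with a log2 fold change of −3.41 ± 0.10 (SE, edgeR adjusted p = 6.7e-25), and every P library lay below every D1 library. Fxyd5, which encodes dysadherin, a glycoprotein that also lowers cell adhesion, had 1709, 1430 and 1657 scaled counts in D1, and 5661, 5767 and 5615 in P. It rose in P, with a log2 fold change of 1.83 ± 0.044 (edgeR adjusted p = 1.4e-27). These 2 modulators thus moved in opposite directions in P.

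In the knockdowns both genes were higher than in D1 at an adjusted p below 0.05, by less than 2-fold. At an unadjusted p below 0.05 in either direction there were 2 of 3 tested FXYD genes in RBPMS KD1, where Fxyd7 was the other, and 2 of 2 in MBNL KD. Over all genes tested the shares at that threshold were 62.5% and 69.7%. Fxyd1 had a log2 fold change of 0.20 ± 0.065 in RBPMS KD1 (edgeR adjusted p = 0.0087), where its libraries overlapped with D1, and of 0.59 ± 0.061 in MBNL KD (edgeR adjusted p = 7.9e-10), where they did not. Fxyd5 had values of 0.44 ± 0.053 in RBPMS KD1 (edgeR adjusted p = 3.6e-08) and 0.81 ± 0.058 in MBNL KD (edgeR adjusted p = 2.7e-13). Fxyd7 averaged 13.0 scaled counts in D1, 1.26 in P, 12.5 in RBPMS KD1 and 4.06 in MBNL KD, and Fxyd2 averaged 4.77, 1.26, 12.1 and 1.09 in the same order. The other 3 of the 7 FXYD genes stayed under 10 scaled counts in each group mean.

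Of 4 genes related to the members by family, Atp1b4, which encodes a muscle protein that does not act as a pump subunit in mammals, had 11 to 29 counts and none of the 3 comparisons called it. Atp4a, the alpha subunit gene of the gastric proton pump, had counts of 0, 6 and 7 in D1 and 10, 13 and 17 in RBPMS KD1, the group through which alone it passed the filter on low counts, and was called higher there. That call was lost without D1 replicate 1 (log2 fold change 1.00 in place of 1.57), without RBPMS KD1 replicate 2 (1.59) or replicate 3 (1.37), without the filter on low counts (1.57), with DESeq2 (1.60) and on the normalised values (0.30). Atp4b and Atp12a were not tested, with at most 1.58 scaled counts in a group mean.

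Among the 4 Nkain genes, whose products bind the beta subunit, 2 were tested. In P 1 of them was called higher, beside 16.4% of all genes, and both had an unadjusted p below 0.05, beside 78.9%. Nkain1 had 3098 scaled counts in D1 and 2577 in P, a log2 fold change of −0.27 ± 0.042 (edgeR adjusted p = 9.4e-07). Nkain4 had 66.4, 44.4 and 82.7 scaled counts in D1 and 162, 136 and 137 in P, and was called higher in P (1.17 ± 0.20, edgeR adjusted p = 3.4e-06). It was not called without D1 replicate 2 (0.96), under quantile normalization (0.74) or on the normalised values (0.53). In MBNL KD the Nkain4 value was 0.86 ± 0.22 (edgeR adjusted p = 0.001), below the fold threshold, and without MBNL KD replicate 3 (1.01), without D1 replicate 3 (1.07) or with thinned counts (1.06) it was called.

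Of 6 genes that act on the pump's surface level or activity, 5 were tested, and edgeR and DESeq2 each called 0 in the 3 comparisons with D1, where 27.6% (P), 4.68% (RBPMS KD1) and 10.2% (MBNL KD) of all genes were called by edgeR. At an unadjusted p below 0.05 there were 4 in P, 1 in RBPMS KD1 and 1 in MBNL KD, beside 78.9%, 62.5% and 69.7% of all genes tested. In P, Nedd4l, a ubiquitin ligase, was higher by 0.79 ± 0.039 on the log2 scale (edgeR adjusted p = 9.2e-19), and the kinase genes Sgk1 and Sgk3 and the agrin gene Agrn were lower at an adjusted p below 0.05. Sgk1 had the widest difference of those 3, at −0.70 ± 0.070 (edgeR adjusted p = 6.9e-11).

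Of 7 genes for sodium-driven exchange and cotransport, which use the gradient the pump sets, 6 were tested in P, 2 were called higher and 2 lower, beside 16.4% and 11.2% of all genes. Slc8a1, the sodium-calcium exchanger NCX1, had 13113, 13890 and 12843 scaled counts in D1 and 5337, 5297 and 5303 in P. It fell, with a log2 fold change of −1.32 ± 0.030 (edgeR adjusted p = 1.3e-28), and the groups lay far apart. Slc8a3, the exchanger NCX3, fell from 110, 92.9 and 89.8 to 21.7, 9.46 and 26.5 scaled counts (−2.34 ± 0.29, edgeR adjusted p = 8.4e-09). Slc8a2, the exchanger NCX2, was lower by less than the threshold (−0.68 ± 0.19, edgeR adjusted p = 0.0013), and past it under quantile normalization (−1.17).

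Slc4a4, a sodium bicarbonate cotransporter, rose in P from a mean of 2575 to 8096 scaled counts (log2 fold change 1.65 ± 0.032, edgeR adjusted p = 1.7e-30). Slc9a2, a sodium-proton exchanger gene, had counts of 0, 0 and 2 in D1 and 12, 36 and 22 in P. It passed the filter on low counts only through P, so its place among the 2 genes called higher is a description. In each knockdown edgeR and DESeq2 called 0 of the 5 tested genes of this list, beside the 4.68% and 10.2% of all genes that edgeR called, and an unadjusted p below 0.05 was found for 4 of them in RBPMS KD1 and for 2 in MBNL KD, beside the same 62.5% and 69.7% of all genes. Their median log2 fold change was −0.31 in RBPMS KD1 and 0.14 in MBNL KD. The widest difference in RBPMS KD1 was that of Slc4a7, at −0.63 ± 0.032 (edgeR adjusted p = 5.1e-16). In MBNL KD, Slc8a1 lay at 0.15 ± 0.026 (edgeR adjusted p = 8e-06) and Slc4a4 at 0.14 ± 0.040 (edgeR adjusted p = 0.0029).

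**Figure D3:**
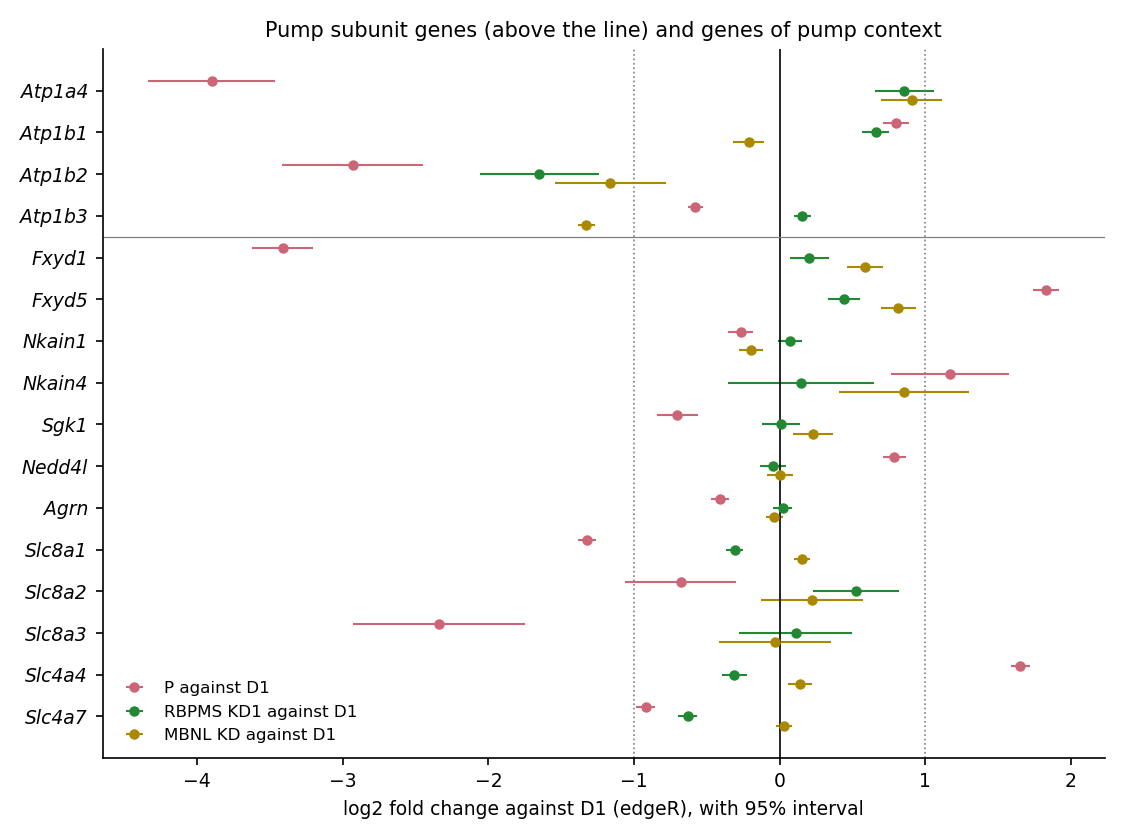
Log2 fold changes against D1 from edgeR (horizontal axis, with 95% intervals) of the 4 pump subunit genes, above the line, and of genes of pump context, for P, RBPMS KD1 and MBNL KD. Dotted lines mark a 2-fold difference. Atp1a4 (−3.90), Fxyd1 (−3.41) and Atp1b2 (−2.93) lie furthest to the left in P, while in the knockdowns, of the genes plotted, only Atp1b2 and, in MBNL KD, Atp1b3 lie past a dotted line.

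For each member, the 3 genes with the most similar pattern were sought among the other genes with a mean of at least 100 scaled counts, 12646 for Atp1b2, whose own mean is lower, and 12645 for the other members. Likeness was the root mean square difference of the 4 group means of log2 CPM after centring each gene, so it rests on 4 points and on the libraries that chose the members. For Atp1b1 the nearest genes were Trim21, Scara3 and Erap1, at 0.022, 0.028 and 0.028. Trim21 averaged 1074 scaled counts in D1, 1829 in P, 1726 in RBPMS KD1 and 938 in MBNL KD. For Atp1b3 they were Atg9a, Ncdn and Fkbp10, at 0.046, 0.068 and 0.072, and Atg9a averaged 8032 in D1, 5464 in P, 8354 in RBPMS KD1 and 3159 in MBNL KD.

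For the members with low counts the nearest genes were less alike. The candidates for Atp1a4 were LOC102557019, LOC120100783 and Ptpn22, at 0.138, 0.140 and 0.141, and Ptpn22 averaged 176 in D1, 15.4 in P, 316 in RBPMS KD1 and 338 in MBNL KD. Those for Atp1b2 were Plxnb1, Ctxn1 and Arc, at 0.129, 0.201 and 0.219, and Plxnb1, a semaphorin receptor gene, averaged 5742 in D1, 780 in P, 1924 in RBPMS KD1 and 2100 in MBNL KD.

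**Figure D4:**
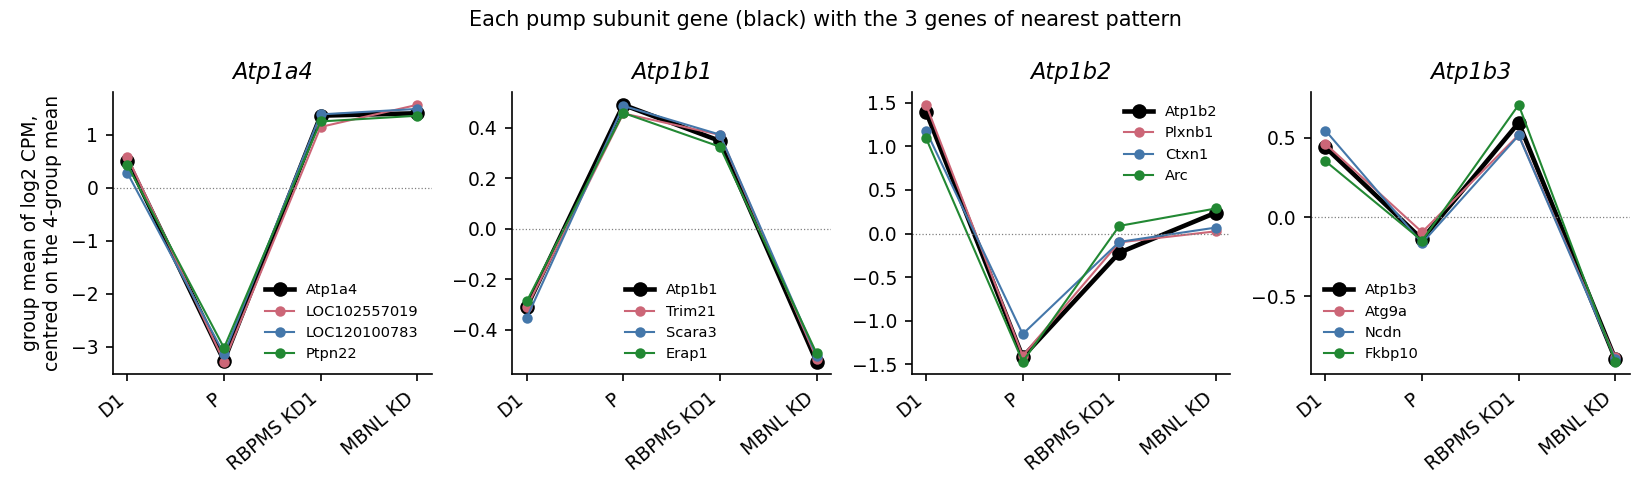
Group means of log2 CPM, centred on the mean of the 4 groups, for each pump subunit gene (black) and its 3 nearest genes (coloured), in D1, P, RBPMS KD1 and MBNL KD. The lines join groups for reading only. Differences from the member are smallest for Atp1b1 (0.022 to 0.028) and reach the highest value for Atp1b2 (0.129 to 0.219). The nearest gene of Atp1b2 is still closer than those of Atp1a4 (0.138 to 0.141).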

How the data were processed

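Poly(A) RNA of 12 libraries was sequenced, and D1, P, RBPMS KD1 and MBNL KD were assigned from the labels (3 libraries each). The titles of the MBNL KD libraries name MBNL1 only, and their treatment label names MBNL1 and MBNL2. Per the methods and the submitters' processing notes, the authors subsampled reads, aligned them with STAR 2.7.11b to mRatBN7.2 and made the deposited counts per gene with featureCounts. The submitters' notes also name FastQC 0.11.9, MultiQC 1.14, edgeR 3.40.2 and DESeq2 1.38.3. The normalised table deposited by the authors holds signal values after noise correction (noisyR) and quantile normalization, of which the lowest is 35. The low-count members Atp1a4 and Atp1b2 had smaller differences in P on those values, and the cause was not tested. The library kit named in the labels marks strand, but the strand option of featureCounts and how it treated read pairs are not given in the sources used here. Each library held more counts than the number of reads per sample that the paper gives after subsampling. Whether mates of a pair were counted singly was not tested, so counts may exceed the number of sequenced fragments.

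The 4 comparisons used edgeR 4.0.16 in R 4.3.3 on the counts of the 6 libraries compared: filterByExpr, TMM, the quasi-likelihood fit and F test, and Benjamini-Hochberg adjustment over all genes tested. A gene was called at an adjusted p below 0.05 and an absolute log2 fold change above 1. Intervals are at 95%, and log2 CPM used a prior count of 2. The procedure was tested on simulated data. MBNL KD replicate 3 was the shallowest library. Promoter windows, gene overlaps and pseudogenes come from RefSeq tables for GRCr8, matched by symbol (3 of 4 members had a window), and Python 3.11.15 with matplotlib 3.10.9 was used for sequences and figures.

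The members and lists were chosen with earlier results of these data known. The genes named are the members, genes of the context lists called in a comparison with D1, FXYD genes averaging at least 10 scaled counts in a group, the 3 nearest genes in pattern per member, and the siRNA targets. Other context genes, marker genes and Nme7 were named after their values were seen. Some genes that the rule or the lists select are not reported here. DESeq2 1.42.0, limma 3.58.1, other scalings and filters, the replicate block, thinned counts and leaving out each library served as alternatives.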

Additional observations from a re-analysis of the deposited data

How the results depend on the processing

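The direction against D1 and the side of the thresholds of the 4 members were kept in 191 of 192 alternatives over the 12 pairs of member and comparison. The exception was Atp1b2 in MBNL KD with counts thinned to 25%, at −0.92. In RBPMS KD1 against MBNL KD the sign of Atp1a4 turned with thinned counts (0.19) and when RBPMS KD1 replicate 2 (0.009) or MBNL KD replicate 3 (0.045) was left out, and the values without 1 library ran from −0.107 to 0.045.

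Numbers of called genes moved by over 1.5 times in 5 cases. On the authors' normalised values, limma called 209 genes in RBPMS KD1 (745 in the main fit), 784 in MBNL KD (1643) and 1050 between the knockdowns (1920). With at least 10 counts in every library, 2933 genes were called in P (4641), where fewer genes are tested. Thinned counts gave 480 in RBPMS KD1.

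On the normalised values the Atp1b1 share of beta counts was 2.60% in D1, 5.56% in P and 3.66% in RBPMS KD1, the Atp1b2 share 0.311% in D1, 0.0925% in P, 0.113% in RBPMS KD1 and 0.335% in MBNL KD, and the Atp1b3 share 97.1%, 94.3%, 96.2% and 94.5%. With thinned counts the Atp1b2 share was 0.0439% in RBPMS KD1. On the normalised values the log2 ratio differences from D1 were 1.14 (P) and 1.03 (MBNL KD) for Atp1b1 to Atp1b3, 2.83 (P) for Atp1b1 to Atp1b2, and 1.69 (P) and 1.43 (RBPMS KD1) for Atp1b3 to Atp1b2. The cause was not tested; the lowest value in that table is 35.

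Same-numbered libraries did not deviate together (correlations from −0.025 to 0.025), so no pairing by number was seen. Such values cannot show whether the libraries were handled as matched sets. With the replicate block, 4593 genes were called in P, 730 in RBPMS KD1, 1634 in MBNL KD and 1915 between the knockdowns. Shares corrected for length were not run. Depth limits Atp1a4 and Atp1b2 in P most, with 14 to 24 counts a library.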

Other observations

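Tfdp2 and Casq1, genes that lie next to a member in the GRCr8 gene order were named after their values were seen, and they were not part of a comparison above. Tfdp2, beside Atp1b3, had 3130 ± 186 (SD, n = 3) scaled counts in D1, 1306 ± 31.6 in P, 2774 ± 95.6 in RBPMS KD1 and 1210 ± 35.9 in MBNL KD. Its log2 fold change was −1.26 ± 0.047 (SE, edgeR adjusted p = 2.8e-22) in P and −1.36 ± 0.048 (edgeR adjusted p = 1.1e-20) in MBNL KD. In RBPMS KD1 it was −0.17 ± 0.043 (edgeR adjusted p = 0.001), where Atp1b3 was higher. Casq1, beside Atp1a4, had 434 ± 15.7 in D1, 247 ± 16.6 in P, 633 ± 11.6 in RBPMS KD1 and 994 ± 40.9 in MBNL KD, with a log2 fold change of 1.20 ± 0.070 (edgeR adjusted p = 2.3e-15) in MBNL KD. Whether counts of the neighbours are related was not tested.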
